A study of Mus musculus with 2 samples.

Results

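The mirtron-type miRNAs examined here were the 5p arms of miR-6896 to miR-7094, chosen by probe name alone (mmu-miR, a number in that range, an optional letter, then -5p). They came to 200 of the 1900 mouse miRNA probes on the array, each printed as 1 spot, and dim probes were kept. The RNA was that of epithelial cells taken from the colon of C57BL/6 mice, 8 weeks of age. One group had received dextran sulfate sodium (DSS), a sugar polymer used to provoke colitis in mice, at 2.5% in the drinking water for 5 days, and the other was the control. Each condition was represented by 1 array (DSS n = 1, control n = 1), so no difference below has a replicate check, a standard error or a p-value. It is the number of arrays that sets the precision. The sources used here do not say whether several mice were pooled.

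Mirtrons are miRNAs cut from short introns. The spliceosome releases the intron, the lariat is opened by the debranching enzyme, and the folded intron enters the Dicer pathway without the usual cut by Drosha. Many mammalian mirtrons carry an unpaired tail at one end that is trimmed first. The 5p arm lies at the donor side of the intron and the 3p arm at the acceptor side, where the intron ends in AG after a stretch of pyrimidines.

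The members matched that description at the acceptor end. RefSeq (GRCm38.p6) held a mature sequence for 176 of the 200 members and a hairpin for 171. Of these 171 hairpins 158 ended in AG (92.4%), against 48 of 462 hairpins of other 5p probes (10.4%). Only 26 began with GU (15.2%, against 6.49% of the others), and 20 had both ends (11.7%, against 1.52%), so few of the annotated hairpins started at the donor site itself. Along the chromosome 151 of the 171 (88.3%) lay within the bounds of a protein-coding gene on the same strand, against 188 of 462 (40.7%). The median hairpin length was 66 bases for members and 79 for the others. By mature sequence 18 members lay on chromosome 7, 17 each on chromosomes 11 and 5 and 16 on chromosome 8.

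Hairpins of 4 members are shown: the 3 whose 5p arms were at least 2-fold lower on the DSS array, and the one whose 5p arm was highest. Capitals mark the mature 5p arm and the closing AG, and sequences are from RefSeq, GRCm38.p6. Mir6956 lies at chr15:79002223-79002284 (plus strand) within Triobp, which encodes an actin-binding protein. Mir7030 lies at chr5:115645573-115645632 (plus strand) within Rab35, a GTPase of endosome recycling. Mir6922 lies at chr11:60202262-60202327 (minus strand) within Srebf1, a transcription factor of lipid synthesis. Mir7005 lies at chr2:180179755-180179823 (minus strand) within Lama5, a laminin chain of basement membranes.
Mir6956: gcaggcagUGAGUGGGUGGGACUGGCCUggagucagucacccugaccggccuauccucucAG
Mir7030: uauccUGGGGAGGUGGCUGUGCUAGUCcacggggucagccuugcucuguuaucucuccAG
Mir6922: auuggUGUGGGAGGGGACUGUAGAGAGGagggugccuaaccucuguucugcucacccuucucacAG
Mir7005: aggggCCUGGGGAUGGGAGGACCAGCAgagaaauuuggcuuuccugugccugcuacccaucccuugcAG

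The next sequences are the 5p arms of the members with the largest differences among the brighter ones, first those lower on the DSS array and then those higher. The seed, bases 2 to 8, is in capitals. It is the stretch through which a miRNA mainly pairs with its targets. miR-6917-5p and miR-6972-5p also belong to these sets.
miR-6956-5p: uGAGUGGGugggacuggccu
miR-7030-5p: uGGGGAGGuggcugugcuaguc
miR-6922-5p: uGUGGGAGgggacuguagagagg
miR-7063-5p: aUGAGAGGugcaggcugagcaca
miR-6931-5p: uGGGGUGGggagugggggacu
miR-7053-5p: uGGGGAAAggcaggcuacugg
miR-6913-5p: uGGGAGACcagucagguguugg
miR-7018-5p: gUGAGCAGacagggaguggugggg
miR-7036a-5p: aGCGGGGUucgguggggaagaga
miR-7005-5p: cCUGGGGAugggaggaccagca
miR-6907-5p: uUCUGGGAcacagggaggcucg
miR-7016-5p: cAGGGAGGggagcgagaguag
miR-7057-5p: cAGGAGAGgacucaaguu
miR-6924-5p: aGAGGAUGgggauuuggcgaagu
miR-6967-5p: cAGGGAGGgauaaagaccagu
miR-7033-5p: uCUCCAGGagucugaggggcagg
miR-6908-5p: uUGCCUGUcagggagagcccca
miR-6969-5p: cAGCAGAGuagggagcaaaaga

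Members were G-rich. The median share of G in the mature sequence was 43.7% in the 176 members, 14.3% in 177 of the 3p arms of the same number range, and 27.3% in 491 other 5p probes. Purines (A and G) made up a median of 68.2% of members and 27.8% of the 3p arms. The run GGG, searched on the mature strand only, was in 133 of 176 members (75.6%) and the longer run GGGG, each of which also holds GGG, in 67 (38.1%). Among other 5p probes the shares were 28.3% and 10.4%, and among the 3p arms 4.52% and 1.13%. U was the first base of 84 members (47.7%) and G of 22 (12.5%). The histogram of G content shows members and 3p arms almost apart.

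**Figure D1:**
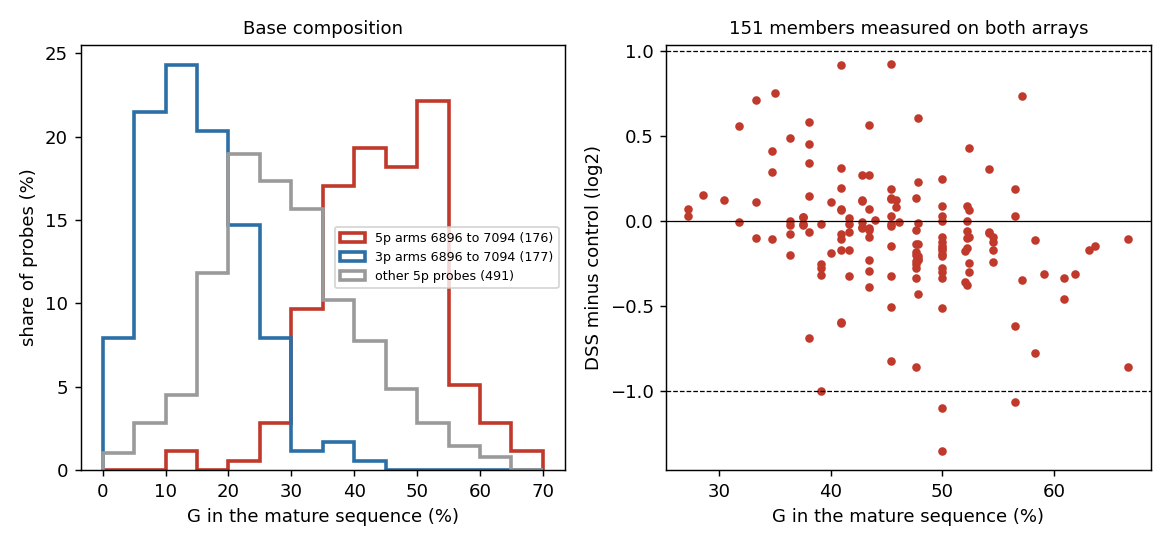
Left, share of probes (%, y axis) by the percent of G in the mature sequence (x axis) for the 5p arms of miR-6896 to miR-7094 (red), the 3p arms of the same range (blue) and other 5p probes (grey). Right, log2 difference, DSS minus control, against percent of G for 151 members measured on both arrays, with 2-fold marked by dashed lines. The members centre on 43.7% G, and those with more G lie lower on the right (Spearman's rho −0.37, or −0.06 with the files' background subtracted).

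Seeds were diverse. The 176 sequences held 155 different seeds, of which 137 occurred in 1 member, 15 in 2 and 3 in 3. The seeds in 3 members were GGGCUGA (miR-7028-5p, miR-7079-5p and miR-6911-5p), GUGGGAG (miR-6922-5p, miR-7008-5p and miR-6993-5p) and GGGGAGG (miR-7030-5p, miR-7075-5p and miR-7076-5p). A further probe outside the members shared each of the first 2 of these seeds, miR-7662-5p for GGGCUGA and miR-705 for GUGGGAG. The arms not yet printed are given here to show how far the shared stretch reaches.
miR-7028-5p: uGGGCUGAggcuugggucaggag
miR-7079-5p: aGGGCUGAggcagugaguccug
miR-6911-5p: uGGGCUGAgugggucuguggcau
miR-7008-5p: uGUGGGAGaugccaggagccguac
miR-6993-5p: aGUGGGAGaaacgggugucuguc
miR-7075-5p: cGGGGAGGaggacaugguuuu
miR-7076-5p: aGGGGAGGugguauggucuca

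Most members gave a signal. A probe counted as measured when it exceeded the trimmed mean of the blank spots by 2 SD, a limit of 130.9 on the DSS array and 99.6 on the control array (scanner units). On the DSS array 177 of 200 members passed (88.5%, exact 95% binomial interval 83.2 to 92.6%, which covers counting over probes only), where 61.5% of all 1900 probes did. On the control array 178 passed (89%, 83.8 to 93.0%), where 56.3% of all probes did. The 3p arms passed in 153 of 201 cases on each array (76.1%), and other 5p probes in 311 (DSS) and 261 (control) of 585. Both arrays measured 171 members (85.5%, against 52.4% of all 1900 probes). A further 6 passed with DSS alone (3%, against 9.16% of all probes) and 7 with control alone (3.5%, against 3.95%). On neither array passed 16 (8%, against 34.5%), miR-6902-5p, miR-6932-5p and miR-7092-5p among them.

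Detection went with base composition. Median G was 45.5% in the 157 members with a sequence that passed on the DSS array and 36.4% in the 19 that did not, and on the control array 45.5% in 158 and 34.8% in 18. GC content ran 60.9% against 45.5% on the DSS array and 60.9% against 43.5% on the control array. Across the 176 members, which share 2 hybridisations and are not replicates, Spearman's rho between G content and signal over blanks was 0.41 on the DSS array and 0.47 on the control array. Pearson's r between G content and log2 signal was 0.37 and 0.44. The link was not particular to members. In other 5p probes rho with G content was 0.37 (DSS) and 0.44 (control), and in the 3p arms −0.16 and −0.18. With GC content rho was 0.57 and 0.59 in members, 0.58 and 0.60 in the 3p arms and 0.59 and 0.65 in other 5p probes. Probes of different sequence bind with different strength, so brightness does not rank the miRNAs by amount.

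Labelled cell type and array quality were checked on other probes. All 8 epithelial markers (the miR-200 family with miR-141 and miR-429, and miR-192, miR-194 and miR-215) were measured on the DSS array and 7 of 8 on the control array, with summed signal over blanks of 950 and 921. Leukocyte markers were measured in 4 of 6 cases on the DSS array and 3 of 6 on the control array, with sums of 161.5 and 56.4. miR-155-5p and miR-142a-3p were measured on neither. Smooth muscle and fibroblast markers were measured in 4 of 5 cases on each array, with sums of 612 and 740. Red cell markers were measured in 2 of 3 cases on each, with sums of 136.2 and 87.4, and the endothelial miR-126a-3p was measured on both (11.3 and 11.6). Of the leukocyte sums, miR-150-5p alone gave 80.6 (DSS) and 13.7 (control). All these sums are unscaled and come from 1 array per condition. Whether they reflect cell makeup, and what part that has in the results below, was not tested. In bulk RNA, fewer cells of a type and less RNA per cell cannot be told apart. Negative Control 1 spots averaged 137.6 on the DSS array and Negative Control 3 spots 105.8 on the control array, both above the limit, so a member just over the limit may hold no more signal than these.

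Most members differed little, as did most probes, and more members were lower than higher on the DSS array. After background correction and quantile normalisation the log2 difference, DSS minus control, had a median of −0.09 over the 171 members measured on both arrays, with quartiles of −0.24 and 0.07. Over all 995 probes measured on both arrays the median was −0.003, with quartiles of −0.12 and 0.14. It was 0.02 over 145 of the 3p arms and −0.001 over 241 other 5p probes. Below 0 were 109 of 171 members (63.7%), where 50.4% of all 995 probes were, and 61 members lay above 0. In 109 of the 171 members the difference was smaller than 0.25 in either direction. The same count over all 995 probes is not given here, but both of their quartiles lay within that range. Before any scaling between arrays, 147 of 171 members were dimmer over blanks on the DSS array (86.0%), as were 68.1% of all 995 probes. Spike control spots ran the other way and averaged 35278 over blanks on the DSS array and 17974 on the control array.

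The members' median lay below that of all probes under each of 12 ways of processing the arrays, by between 0.05 and 0.40 on the log2 scale. The median of all 995 probes itself was −0.15 when arrays were scaled to their medians, 0.28 when scaled to the 75th percentile of probes measured on both arrays, 0.21 in the authors' values and −1.02 with scaling to the spike controls. Relative to it, the members stood at −0.30 with no scaling and −0.40 in the authors' values. Scaling to the medians, to either 75th percentile or to the spike controls only shifts each array by a constant. The gap is then the same as with no scaling, by construction. All 12 rest on the same pair of arrays, and those settings are not separate checks.

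**Figure D2:**
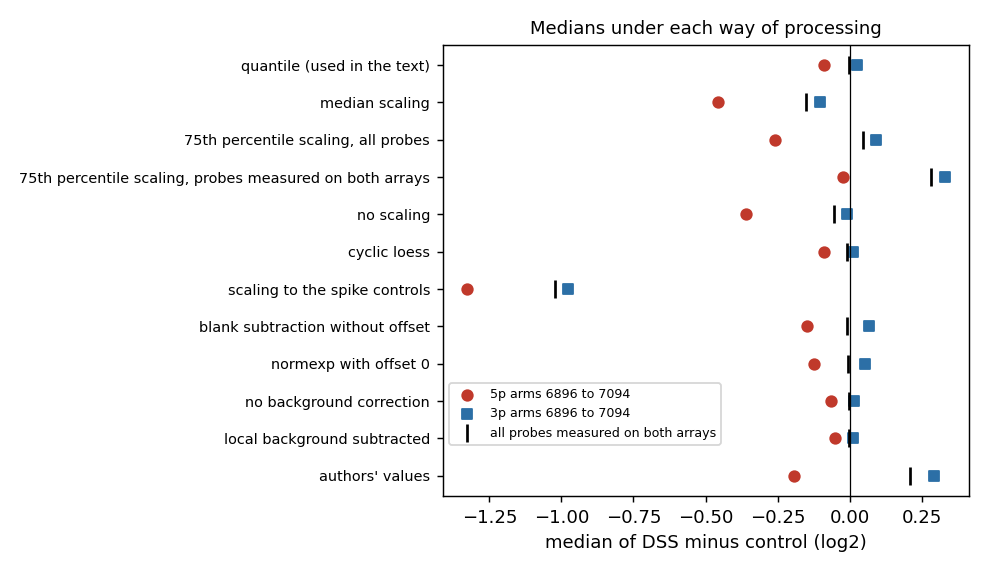
Median log2 difference, DSS minus control (x axis), under each way of processing (rows), for the 5p arms of miR-6896 to miR-7094 (red circles), the 3p arms of the same range (blue squares) and all probes measured on both arrays (black ticks). The red circles lie left of the black ticks in every row, by 0.05 to 0.40. The gap is the same by construction in the rows that only shift each array by a constant.

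Members were brighter than most probes, with a median signal over blanks of 83.4 on the DSS array and 149.5 on the control array, against 35.3 and 42.6 in the 824 other probes measured on both. Differences were therefore also read within quartiles of mean normalised signal over all 995 probes, a split chosen after the data were seen. In the dimmest quartile the median was −0.002 in 18 members and −0.02 in 231 other probes. In the second it was −0.10 in 24 members and 0.008 in 225 others. In the third it was −0.10 in 48 members and 0.07 in 200 others, and in the brightest −0.09 in 81 members and 0.08 in 168 others. In the upper 3 quartiles, from dimmer to brighter, members were lower in 18 of 24, 34 of 48 and 48 of 81 cases, and other probes in 106 of 225, 83 of 200 and 67 of 168. The lower median of the members thus held within each of these 3 and was not seen in the dimmest.

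**Figure D3:**
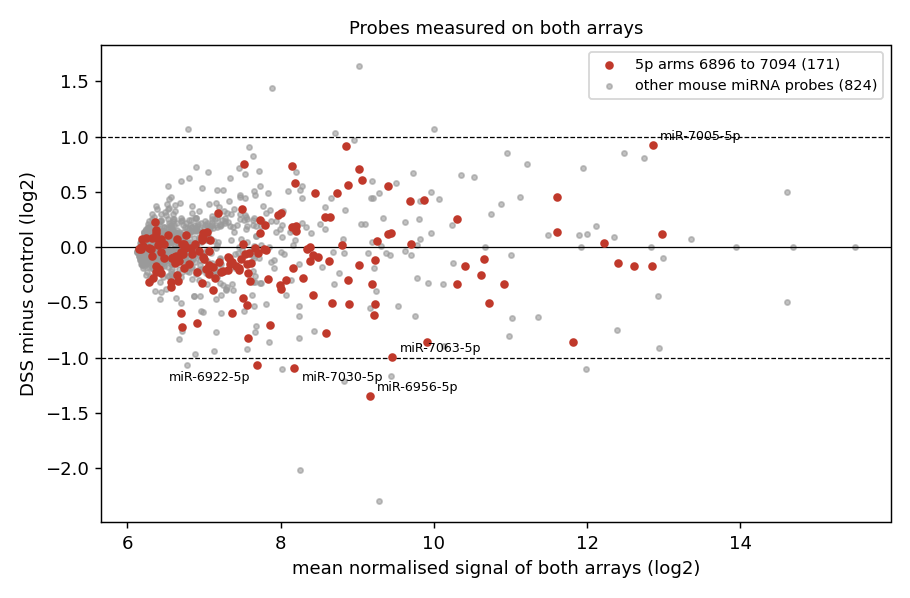
Log2 difference, DSS minus control (y axis), against mean normalised log2 signal of both arrays (x axis) for the 171 members (red) and 824 other probes (grey) measured on both arrays. Dashed lines mark 2-fold. 3 members lie below the lower line and 0 above the upper line.

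Differences also ran with G content. In the 36 members richest in G (52 to 66.7%) the median difference was −0.15, with 28 lower on the DSS array. In the 65 members of the middle range (42.9 to 50%) it was −0.09, with 44 lower, and in the 50 members poorest in G (27.3 to 41.7%) it was −0.002, with 25 lower. Signal over blanks ran the same way. It had medians of 129.8 (DSS) and 236.6 (control) in the richest group, 84.6 and 149.8 in the middle, and 49.7 and 79.6 in the poorest. Across 151 members Spearman's rho between G content and difference was −0.37 (Pearson's r −0.33). It was −0.13 across 204 other 5p probes and 0.05 across 129 of the 3p arms. Other settings brought members and other 5p probes close together. The rank correlation was −0.41 in members and −0.38 in other 5p probes in the authors' values, and −0.44 and −0.46 with no scaling. With the files' background value for each spot subtracted it was −0.06 in members and 0.03 in other 5p probes. The sources used here do not state what that value covers. Members with GGGG had a median of −0.13 (62 members) and those without it −0.03 (89 members), an order that turned round with the files' background subtracted (−0.05 and −0.07). In other 5p probes these medians were −0.13 (43 probes) and 0.01 (161 probes), and with that background subtracted 0.005 and 0.003.

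At least 2-fold lower were 3 of 171 members (1.75%), where 1.01% of all 995 probes were, and 0 members were at least 2-fold higher, where 0.503% of all probes were. At 1.5-fold, 14 members were lower (8.19%, against 4.22% of all probes) and 6 higher (3.51%, against 3.22%). The authors added no offset, and in their values 11 members were at least 2-fold lower (6.43%, against 4.12% of all probes) and 5 higher (2.92%, against 8.94%). Blank subtraction gave 11 members lower (6.43%, against 4.72% of all probes) and 2 higher (1.17%, against 3.62%). Normexp without an offset gave 8 lower (4.68%, against 2.51%) and 2 higher (1.17%, against 1.61%). Without scaling 18 members were lower (10.5%, against 5.13% of all probes) and 0 higher (0.101% of all probes). With the files' background subtracted 9 were lower (5.26%) and 2 higher (1.17%), where 2.11% of all probes passed in each direction.

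The lower side was led by miR-6956-5p, whose hairpin in Triobp is printed above. Its signal over blanks was 231.8 on the DSS array and 1238 on the control array, a log2 difference of −1.35 after normalisation (2.55-fold lower). miR-7030-5p, from Rab35, had 114.4 over blanks on the DSS array and 453 on the control array (−1.10, 2.14-fold lower). miR-6922-5p, from Srebf1, had 68.8 on the DSS array and 302 on the control array (−1.06, 2.09-fold lower). These 3 had the same direction in the authors' values, at −1.93, −1.50 and −1.65. With the files' background subtracted they stood at −0.40, −0.10 and −0.21. That background value was large beside these spots: for miR-7030-5p it was 241.7 on the DSS array, where the spot itself read 236.2, and 537 on the control array, where the spot read 546.

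miR-7063-5p lay just inside 2-fold. It comes from a hairpin in Ap2a2, a subunit of the clathrin adaptor AP-2, and had 347 over blanks on the DSS array and 1367 on the control array (−0.995, 1.99-fold lower). miR-6931-5p, which at 66.7% G was the richest in G of those named, had 2348 on the DSS array and 5844 on the control array (−0.86). miR-7053-5p, from Pold1, the catalytic subunit of DNA polymerase delta, had 486 on the DSS array and 1689 on the control array (−0.85).

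A further 4 members completed the 10 lowest among the brighter members. miR-6913-5p, from Dohh, an enzyme that completes hypusine formation, had 68.9 over blanks on the DSS array and 240.8 on the control array (−0.82). miR-7018-5p, from Hspg2, the basement membrane proteoglycan perlecan, had 180.8 on the DSS array and 558 on the control array (−0.77). The differences were −0.70 for miR-6917-5p, with 98.8 on the DSS array and 298.0 on the control array, and −0.62 for miR-7036a-5p. Mir7036a lies in Srrt, which encodes a factor of RNA processing, and its 5p arm had 343 on the DSS array and 906 on the control array. Each of the 10 was below 0 under all 12 ways of processing. They were picked as the lowest, and some settings put most members below 0, so this is no separate check. The share of members below 0 was 100% with scaling to the spike controls, 90.1% with median scaling and 83.6% unscaled.

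The higher side was smaller and depended on the scaling. miR-7005-5p, from Lama5, had 8107 over blanks on the DSS array and 6799 on the control array, a log2 difference of 0.92 (1.89-fold higher). miR-6907-5p, from Rrp1, a factor of ribosomal RNA processing, had 431 on the DSS array and 350 on the control array (0.91, 1.88-fold higher). miR-7016-5p had 233.8 on the DSS array and 193.0 on the control array (0.73). Their differences without scaling were 0.25, 0.27 and 0.23. With scaling to the spike controls they were −0.72, −0.70 and −0.74, and with the files' background subtracted 0.29, −0.42 and 0.61.

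The others of the 10 highest were miR-7057-5p (0.71), miR-6924-5p (0.60), miR-6967-5p (0.58), miR-7033-5p (0.56), miR-6908-5p (0.56), miR-6972-5p (0.49) and miR-6969-5p (0.49). Of these, miR-7057-5p had 448 on the DSS array and 417 on the control array, and stood at −1.09 with the files' background subtracted. miR-6908-5p, from Pdxk, the kinase that activates vitamin B6, had 529 on the DSS array and 636 on the control array, so its normalised difference ran against its unscaled one (−0.23). Of the 10, 5 were brighter over blanks on the DSS array before scaling, and 0 stayed above 0 with scaling to the spike controls. In the authors' values all 10 were above 0 and 0 passed 2-fold.

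**Figure D4:**
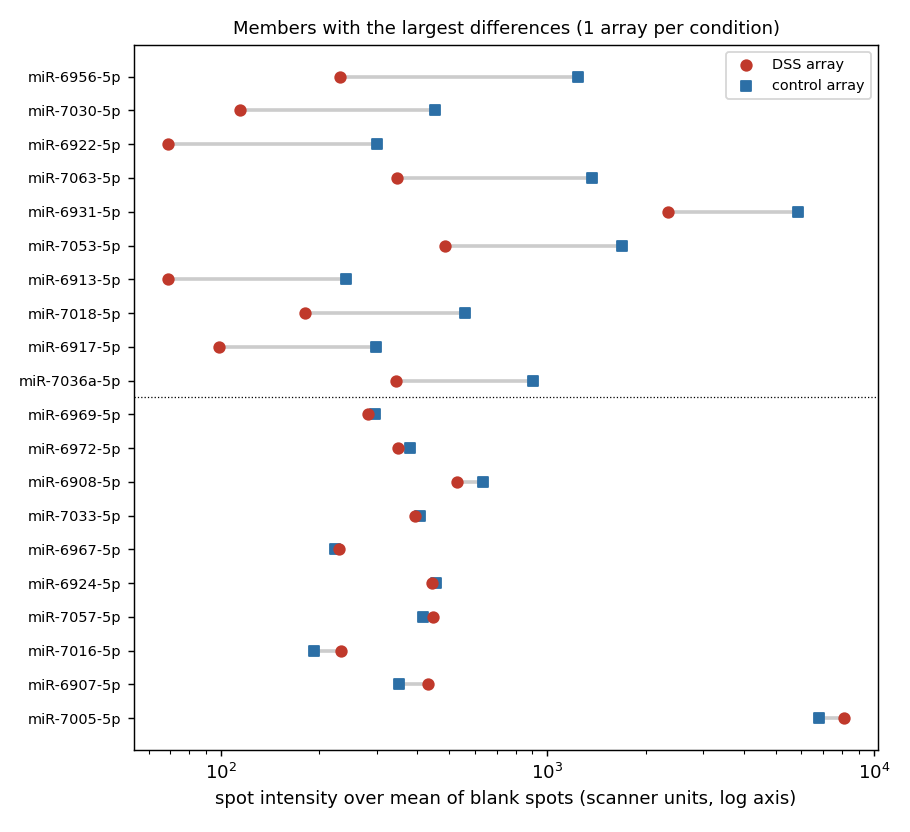
Spot intensity over the mean of the blank spots (x axis, scanner units, log axis) on the DSS array (red circles) and the control array (blue squares) for the 10 members with the lowest and the 10 with the highest normalised difference among brighter members (rows), split by a dotted line. The upper 10 are all dimmer on the DSS array, while in the lower 10 both marks lie close together and 5 are brighter on the DSS array.

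The brightest members were miR-6914-5p, miR-7005-5p, miR-6955-5p, miR-7044-5p and miR-6968-5p. miR-6914-5p had 7033 over blanks on the DSS array and 9039 on the control array (0.12). miR-6955-5p had 5570 on the DSS array and 9226 on the control array (−0.17), and miR-7044-5p had 4784 and 8374 (−0.17). miR-6968-5p had 4086 on the DSS array and 6827 on the control array (−0.15). Leaving out miR-7005-5p, these differences were larger under some other settings. Unscaled, they were −0.36 for miR-6914-5p, −0.72 for miR-6955-5p, −0.80 for miR-7044-5p and −0.73 for miR-6968-5p. With the files' background subtracted they were 1.89, −4.14, −1.72 and −0.25 in the same order.

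Members with the same seed stood far apart in 2 of the 3 groups. In the GGGGAGG group miR-7030-5p stood at −1.10, while miR-7076-5p was at −0.23 and miR-7075-5p at −0.05. In the GUGGGAG group miR-6922-5p stood at −1.06, while miR-7008-5p was at −0.02 and miR-6993-5p at 0.07. In the GGGCUGA group the differences were 0.23 for miR-6911-5p, 0.09 for miR-7028-5p and −0.03 for miR-7079-5p. miR-6911-5p had 25.6 over blanks on the DSS array and 13.1 on the control array. That control spot was no brighter than the mean of Negative Control 3, and its 1.45 in the authors' values rests on that dim spot.

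Pairs of members from 1 host gene stood apart in Srebf1 and Cmip and lay closer in Ankrd52. In Srebf1, miR-6922-5p was at −1.06 and miR-6921-5p at −0.16. In Cmip, miR-7077-5p was at 0.45 and miR-7078-5p at −0.30. In Ankrd52, miR-6914-5p was at 0.12 and miR-6915-5p at −0.07. Host transcripts were not measured on these arrays.

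Both arms of a hairpin were on the array in 200 cases and both were measured on both arrays in 129. In 42 hairpins the 5p arm alone was measured on both arrays, in 15 the 3p arm alone and in 14 neither arm. Among the 129, the 5p arm was lower and the 3p arm higher in 41, both were lower in 41, both higher in 31, and the 5p arm was higher and the 3p arm lower in 14. In the other 2 hairpins 1 difference was exactly 0. These counts turn on the scaling. With no scaling both arms were lower in 60 hairpins, both higher in 6, and the 5p arm alone was lower in 51 and higher in 12. In the authors' values the same counts were 15, 39, 69 and 6, and with the files' background subtracted 50, 40, 27 and 10. With scaling to the spike controls both arms were lower in all 129. The 5p difference lay below the 3p difference in 85 of 129 hairpins, by a median of −0.10, and in 106 in the authors' values (median −0.54). Across hairpins Pearson's r between the differences of the arms was 0.15 (Spearman's rho 0.13), and 0.29 (rho 0.40) with the files' background subtracted. The 5p differences spread more (SD 0.33) than the 3p differences (SD 0.15), and the gap was narrower without an offset, at 0.53 against 0.43 with blank subtraction and 0.54 against 0.46 in the authors' values. The 3p arms were dimmer, with a median over blanks of 32.0 on the DSS array and 39.9 on the control array, against 92.6 and 154.0 for the 5p arms.

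The hairpins whose arms differed most were miR-7053, miR-7005, miR-7036a, miR-6931 and miR-7006. For miR-7053 the 5p arm was at −0.85 and the 3p arm at 0.11. For miR-7005 the 5p arm was at 0.92 and the 3p arm at −0.04. For miR-7036a the arms stood at −0.62 (5p) and 0.31 (3p), for miR-6931 at −0.86 and −0.004, and for miR-7006 at −0.72 and 0.07. The spot of miR-7006-5p read 141.4 on the DSS array, close to the mean of Negative Control 1 there (137.6). The difference of that arm was −0.02 with the files' background subtracted and −1.88 with blank subtraction. The closest arms were those of miR-6950, at 0.13 (5p) and 0.13 (3p), and miR-6960, at 0.07 and 0.07. miR-6986 (0.20 and 0.18), miR-6930 (−0.10 and −0.11) and miR-6945 (0.03 and 0.005) followed. In the authors' values, which hold no offset, miR-6950 stood at 0.32 (5p) and 1.33 (3p) and miR-6960 at 1.33 and 0.34. There miR-6986 stood at 0.11 and 0.54, miR-6945 at −0.01 and 0.42, and miR-6930 at 0.03 and −0.007. The miR-6960-5p spots read 135.4 (DSS) and 100.2 (control), below the means of Negative Control 1 (137.6) and Negative Control 3 (105.8) there. The 3p arms of the first 2 hairpins are shown for the contrast with the G-rich 5p arms above, with the seed in capitals.
miR-7053-3p: cUCCUGUGucuccuuccccag
miR-7005-3p: cUGUGCCUgcuacccaucccuugca

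**Figure D5:**
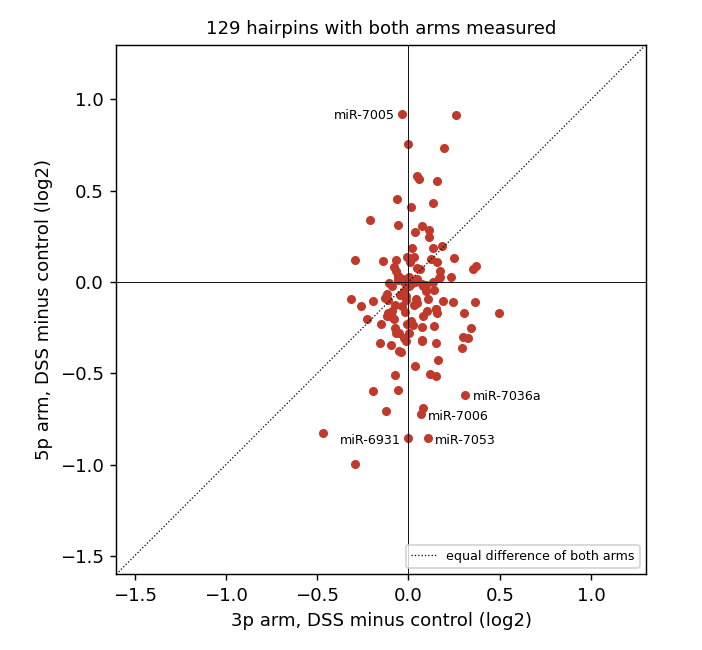
Log2 difference, DSS minus control, of the 5p arm (y axis) against that of the 3p arm (x axis) for 129 hairpins with both arms measured on both arrays. The dotted line marks equal differences. At the offset used, the points spread more along the 5p axis (SD 0.33) than along the 3p axis (SD 0.15), where blank subtraction without an offset gives 0.53 and 0.43.

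Members measured on 1 array only were dim. On the DSS array alone these were led by miR-7026-5p (13.7 over blanks), miR-7021-5p (13.2) and miR-7065-5p, for which the DSS array was at least 1.06-fold, 1.05-fold and 1.04-fold brighter. Their spots on the control array read 6.86, 1.95 and 6.35 over blanks. On the DSS array all of them read below the mean of Negative Control 1 there (137.6 before blank subtraction). Their bounds therefore do not establish a difference. On the control array alone miR-7010-5p had 29.1 over blanks against 8.07 on the DSS array, at least 1.31-fold lower on the DSS array. miR-6928-5p followed with 7.69 on the DSS array and 20.7 on the control array (at least 1.20-fold lower). miR-6946-5p had 1.04 and 9.65 (at least 1.06-fold lower). Its control spot read below the mean of Negative Control 3 there (105.8 before blank subtraction), so its bound does not establish a difference. These bounds set the normalised value of the array that measured the probe against whichever was higher on the other array, the dim spot's own value or its lowest measured one.

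Of the mirtrons outside the number range, miR-877, miR-1224 and miR-702 were on the array with both arms, and each arm was measured on both arrays. miR-1224-5p had a spot intensity of 270.0 on the DSS array and 479 on the control array (log2 difference −0.53), and its 3p arm stood at −0.06. miR-702-5p was at −0.27 and miR-702-3p at 0.22. miR-877-5p was at −0.005 (0.16 in the authors' values) and miR-877-3p at 0.13.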

How the data were processed

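Total RNA was labelled with Hy5 and hybridised in 1 colour, per the labels' protocols. The deposited scanner files give a median spot intensity and a background intensity for 3200 spots at 635 nm, with scans at 3 gains combined per the file headers. The authors' deposited table holds 1 intensity per probe, which equals the spot minus the blank mean times 0.787 (DSS) or 0.563 (control). The sources used here do not name the scanner software.

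The normexp background model of limma 3.58.1 in R 4.3.3 was fitted to all spots with an offset of 50, and values were log2 transformed and quantile normalised over 1900 probes. The files' background value for each spot was not subtracted, except as an alternative. What it covers is not stated in the sources used here. The blank mean left out the 45 highest and 45 lowest of 896 blanks. miR-3081-3p, which carried a poor flag on the control array, was counted as not measured. It stayed in the normalisation and among the 1900 probes. The offset shrinks folds of dim probes. The steps were tried on simulated arrays with changes placed only on brighter probes, so that trial does not cover dim ones. With 1 array per group nothing was tested. A bound used the lowest measured value of the other array, or the dim spot's own value where that was higher.

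Members and lists were chosen with earlier results of these data known. Named were members past 2-fold, the 10 lowest and 10 highest brighter than the median member, the 5 brightest, the 3 brightest of each single array, seeds of 3 or more, and the 5 hairpins with the most and the 5 with the least distance between arms. 1.5-fold, 3 and 5 SD limits, other scalings and backgrounds were alternatives. Hosts are protein-coding genes spanning the hairpin on its strand.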

Additional observations from a re-analysis of the deposited data

How the results depend on the processing

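The members' median stayed below 0 under each alternative tried. It was −0.46 when arrays were scaled to their medians, −0.26 when scaled to the 75th percentile of all probes, −0.36 unscaled, −1.33 with scaling to the spike controls and −0.19 in the authors' values, and lay between −0.15 and −0.02 under the others, apart from −0.002 in the dimmest brightness quartile. The count of members at least 2-fold lower moved most, and so did the share of all 995 probes, given here in brackets. It was 23 when arrays were scaled to their medians (6.33%), 13 when scaled to the 75th percentile of all probes (4.12%) and 6 to that of probes measured on both arrays (1.71%). It was 18 unscaled (5.13%), 5 with cyclic loess (1.21%) and 140 with scaling to the spike controls (55.2%). Other backgrounds gave 11 with blank subtraction (4.72%) and 8 with normexp at offset 0 (2.51%). They gave 1 with no background correction (0.603%) and 9 with the files' background subtracted (2.11%). The authors' values gave 11 (4.12%) and 1.5-fold gave 14 (4.22%). It was 3 with each filter on dim probes. The count at least 2-fold higher was 2 with blank subtraction (3.62%), 2 with offset 0 (1.61%) and 2 with the files' background subtracted (2.11%). It was 5 in the authors' values (8.94%) and 6 at 1.5-fold (3.22%), and 0 otherwise. Members measured on the DSS array only numbered 1 with the limit at 3 SD, 3 at 5 SD and 2 at the highest negative control mean, and those on the control array only 15 at 5 SD and 4 without trimming of the blanks. Members measured on both arrays numbered 146 to 166 under these limits. The shares of all 1900 probes under the same limits are not given here, so these counts cannot be read as particular to the members. Leaving out names with a letter gave 196 members. Of 18 named members above 0, 6 stayed so with median scaling and 8 with no scaling. With the files' background subtracted 13 stayed above 0, and with scaling to the spike controls 0 did. Of 19 below 0, 15 stayed so with that background subtracted. The causes of these moves were not tested. With 1 array per condition, leaving out a replicate was not possible. No paired analysis was possible because each group holds 1 array.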
